A study of Mus musculus with 6 samples.

Results

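The 57 genes described here are interferon-stimulated genes, the interferon-inducible GTPases among them, and the receptor chains, sensors, transcription factors and inhibitors of interferon signalling. They were listed by name, with earlier results of these data in view, and matched to the gene symbols of the array's probe annotation. Of the 57, 56 were annotated and tested among 17422 genes in all, and Ifi44 was not analysed here. RNA was measured in oligodendrocyte precursor cells, the glial progenitors that form myelinating oligodendrocytes, from E15.5 forebrains of Jcl:ICR mice, an outbred stock. All cells were kept in the mitogens FGF2 and PDGF-AA and collected on day 3 of infection. The 3 control samples were infected with a control retrovirus and the 3 knockdown samples with a retrovirus against Chd7, and each sample was read on 1 one-colour array. Both groups therefore carry a retroviral infection, and no uninfected sample is part of the comparison. The targeting sequence, the share of infected cells and the number of embryos per sample are not given in the sources used here.

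Interferons are cytokines released when a cell senses foreign nucleic acid or other danger. Type I interferons bind the Ifnar1 and Ifnar2 chains and interferon gamma binds Ifngr1 and Ifngr2, and receptor-bound kinases then activate STAT proteins that enter the nucleus, alone or with Irf9, and switch on genes whose promoters hold an interferon-stimulated response element or a gamma-activated site. The induced proteins block viral replication, coat and break the vacuoles of intracellular microbes and prepare peptides for antigen presentation, and glial cells of the brain can carry out this response.

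The targeted gene Chd7, a chromatin remodeller of the CHD family, read 9.44, 9.20 and 9.47 in the control group and fell to 8.54, 8.44 and 8.48 (log2 intensity, difference -0.88, SE 0.0855, adjusted p = 0.00112 in limma), which left 54.3% of the control signal. Arrays had median raw signals of 83.4 to 89.4, blank spots averaged 58.9 to 61.9, and a probe counted as detected above their mean plus 2 SD (87.0% to 89.8% of probes). With 3 arrays a group, precision is limited by their number. Whether replicates were separate cultures is not in the labels, and a p-value here covers only the spread among these samples, possibly a technical one. Of 8 tested markers of oligodendrocyte precursors, all above the limit on all 6 arrays, 5 fell after knockdown, against 5.14% of all genes (Pdgfra, Cspg4, Sox10, Olig2 and Lhfpl3). In bulk RNA, fewer cells of a type and less RNA per cell cannot be told apart.

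Part of this gene set was higher after Chd7 knockdown, and no tested member passed as lower. At an adjusted p under 0.05 over all genes, 11 of the 56 members (19.6%) rose, against 4.48% of all genes tested. By the same measure 0 fell, against 5.14% of all genes (limma, with 3 members lower at an unadjusted p under 0.05). The 11 were the GTPases Igtp, Irgm2, Gbp3 and Gbp4, the transcription factor Irf9, the ubiquitin ligase Trim25, the antiviral genes Ifi35, Ifit1 and Xaf1, the peptide-loading factor Tapbp and the feedback inhibitor Usp18. Their log2 differences were small, from 0.087 to 0.67, or 1.06-fold to 1.59-fold. On this scale, which adds an offset of 50 to each signal before the log, changes of dim genes are understated.

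Over the 56 members the median log2 difference, knockdown minus control, was 0.077, against 0.00077 over all genes tested, and 45 members (80.4%) lay above 0, against 50.6% of all genes. The values of the other 45 members ran from -0.21 to 0.44 and did not pass. In 24 members (42.9%) each knockdown array was higher than each control array, which held for 14.5% of all genes. The reverse order held for 3 members, Irf5, Irf8 and Mx1, and for 15.3% of all genes. Of the 56 members, 53 were above the detection limit on all 6 arrays. The exceptions were Gbp6 and Ifit1, above it on 1 of 3 control arrays, and Isg20, above it on 2 of 3, and all 3 were above it on each knockdown array. Ifit1 and Gbp6 thus met the filter of at least 3 arrays through the knockdown group, where both read higher. Both are counted among the 24 members and among those above 0. With probes above the limit on all 6 arrays, 10 of 53 members rose, against 4.88% of all genes. Of these 53, 42 lay above 0, with a median of 0.083, against a median of 0.0011 over all genes.

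**Figure D1:**
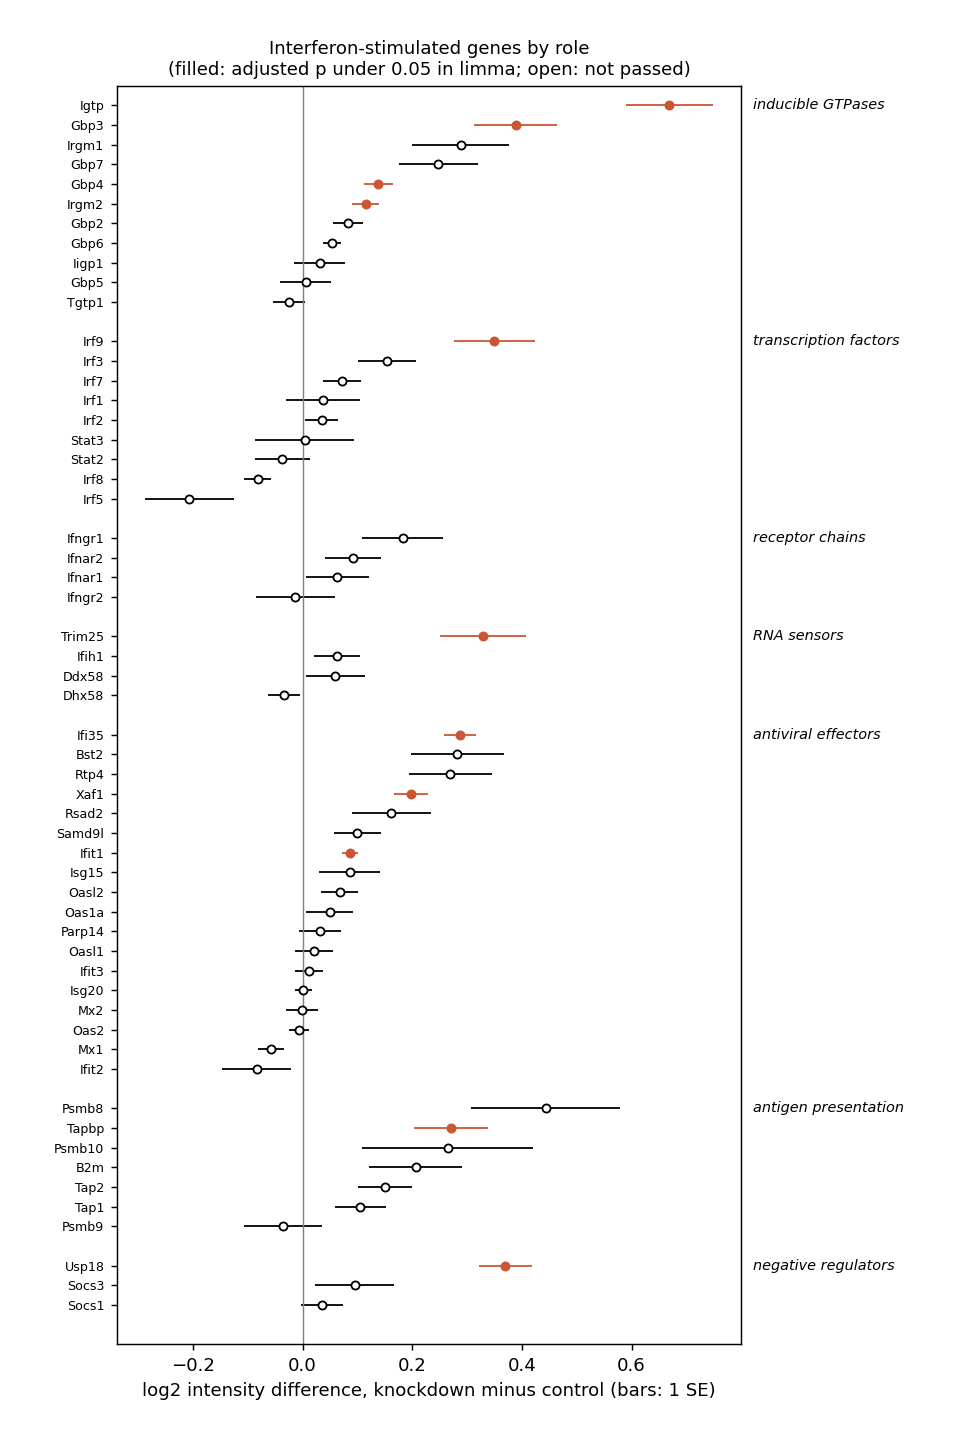
Difference in log2 intensity, knockdown minus control, of the 56 tested members grouped by role, with bars of 1 SE; filled points mark the 11 members that passed at an adjusted p under 0.05. Members that passed occur in each role group except the receptor chains, and Igtp lies farthest to the right at 0.67.

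None of the 4 receptor chains passed. Ifngr1, the ligand-binding chain of the interferon gamma receptor, read 8.04, 8.19 and 8.26 on the control arrays and 8.35, 8.39 and 8.29 on the knockdown arrays, each in the order of replicates 1 to 3 (log2 intensity, as for all values by sample). The groups did not overlap, but knockdown replicate 3 lay just above control replicate 3, and the difference of 0.18 had an adjusted p of 0.166 in limma. Ifnar2, the long signalling chain of the type I receptor, read 6.78, 6.71 and 6.66 against 6.87, 6.78 and 6.78, with a difference of 0.092 and overlapping groups. Ifnar1, its partner chain, read 7.86, 7.79 and 7.82 against 7.94, 7.88 and 7.85, again with overlap, a difference of 0.063. Ifngr2, which recruits a kinase to the interferon gamma receptor, differed by -0.013.

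Among 9 transcription factors, 1 rose (4.48% of all genes did). Irf9, the DNA-binding subunit of the factor that type I interferon assembles, read 6.63, 6.77 and 6.80 in the control group against 7.21, 7.08 and 6.95 after knockdown. All knockdown arrays were above all control arrays, with knockdown replicate 3 closest to them. Group means of 6.73 ± 0.091 (SD, n = 3) and 7.08 ± 0.13 (SD, n = 3) differed by 0.35 (SE 0.0734, adjusted p = 0.0201 in limma). The gene no longer passed when control replicate 2 (adjusted p = 0.0526 in limma), knockdown replicate 1 (0.0683) or knockdown replicate 2 (0.0644) was left out.

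Stat2, which binds Irf9, differed by -0.037, with overlapping groups. Irf3, which is activated downstream of nucleic acid sensors, read 7.39, 7.45 and 7.43 against 7.60, 7.54 and 7.59, without overlap and with a difference of 0.15 (adjusted p = 0.104 in limma). Irf8, a factor of the myeloid lineage, read 5.95, 5.99 and 5.96 against 5.94, 5.86 and 5.87, a difference of -0.082 (adjusted p = 0.0742 in limma), and these are dim signals. Each Irf8 knockdown value was below each control value, and the gene passed as lower without knockdown replicate 1 (adjusted p = 0.0403 in limma).

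Irf5, a factor downstream of Toll-like receptors, read 9.80, 9.69 and 9.84 against 9.63, 9.63 and 9.45, a difference of -0.21 (adjusted p = 0.151 in limma). The groups did not overlap on that probe. The other Irf5 probe was above the detection limit on 3 of 6 arrays, at raw signals of 59.8 to 65.3, close to the blank spots. The other transcription factors lay close to 0, with 0.072 for Irf7, which amplifies type I interferon production, 0.037 for Irf1, 0.035 for Irf2 and 0.0038 for Stat3.

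Of 4 sensing genes, Trim25 rose (4.48% of all genes did). Trim25, a ubiquitin ligase of the RIG-I pathway, read 6.53, 6.46 and 6.38 in the control group against 6.95, 6.78 and 6.63 after knockdown, without overlap. The means of 6.46 ± 0.076 (SD, n = 3) and 6.79 ± 0.16 (SD, n = 3) differed by 0.33 (SE 0.0783, adjusted p = 0.0317 in limma). Leaving out control replicate 2 or 3 or knockdown replicate 1 or 2 ended the call (adjusted p = 0.0807 to 0.0949 in limma). The 3 receptors of viral RNA themselves did not pass, and their groups overlapped. Ifih1 (MDA5) read 6.18, 6.02 and 6.03 against 6.13, 6.12 and 6.16, a difference of 0.062. Without control replicate 1, its highest control value, the difference was 0.11 and passed (adjusted p = 0.0404 in limma). Ddx58 (RIG-I) read 6.88, 6.84 and 6.71 against 6.89, 6.85 and 6.87, a difference of 0.060. Dhx58 (LGP2), which modulates the other two, read 6.21, 6.18 and 6.25 against 6.17, 6.17 and 6.20, a difference of -0.034.

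The inducible GTPases held 4 of the 11 members that rose, out of 11 tested (4.48% of all genes rose). They fall into the immunity-related GTPases (Igtp, Irgm1, Irgm2, Iigp1 and Tgtp1) and the guanylate-binding proteins (Gbp2 to Gbp7), both of which act at the membranes of vacuoles that hold intracellular microbes. In 10 of the 11 the difference was above 0 (50.6% of all genes), with a median of 0.12. In 7 the groups did not overlap with the knockdown higher (14.5% of all genes). Gbp6, among these 7, met the detection filter through the knockdown arrays. Igtp, a regulator of the other immunity-related GTPases, read 6.42, 6.49 and 6.62 in the control group against 7.31, 7.21 and 7.03 after knockdown. The gap between the lowest knockdown and the highest control array was wider than the spread within either group. Group means of 6.51 ± 0.10 (SD, n = 3) and 7.18 ± 0.14 (SD, n = 3) differed by 0.67 (SE 0.0787, adjusted p = 0.00201 in limma). The other Igtp probe read 6.37, 6.45 and 6.50 against 6.98, 6.97 and 6.87, also without overlap, with a difference of 0.50 (SE 0.0513, adjusted p = 0.00142 in limma over all probes, of which 4.03% passed as higher).

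Irgm2, another regulatory member that adjoins Igtp on chromosome 11, read 5.87, 5.90 and 5.85 against 5.99, 6.02 and 5.94. The difference of 0.12 (SE 0.0249, adjusted p = 0.0221 in limma) came at a signal not far above the blank spots. Leaving out control replicate 3 or knockdown replicate 1 or 2 ended the call (adjusted p = 0.0696, 0.0799 and 0.0757 in limma), as did median scaling (adjusted p = 0.0722). Irgm1, the third regulatory member, read 7.77, 7.62 and 7.44 against 7.89, 7.99 and 7.82. Its groups did not overlap, and the difference of 0.29 did not pass (adjusted p = 0.0765 in limma), although it did with the replicate number as a block (adjusted p = 0.021). Iigp1 and Tgtp1, which load onto the vacuole as effectors, differed by 0.031 and -0.025, with overlapping groups. The Tgtp1 probe was dim, at raw signals of 63.8 to 67.7, and may also read the near-identical copy Tgtp2.

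Gbp3 read 6.84, 7.09 and 6.84 in the control group against 7.31, 7.37 and 7.26 after knockdown, and the groups did not overlap. Group means of 6.93 ± 0.15 (SD, n = 3) and 7.31 ± 0.056 (SD, n = 3) differed by 0.39 (SE 0.0756, adjusted p = 0.0149 in limma). It did not pass when control replicate 3 or knockdown replicate 1 or 2 was left out (adjusted p = 0.0509, 0.0541 and 0.0591 in limma). Gbp4 was dim, at 5.78, 5.79 and 5.82 against 5.92, 5.99 and 5.88, without overlap and with a difference of 0.14 (SE 0.0266, adjusted p = 0.0142 in limma). The call ended without control replicate 2 (adjusted p = 0.0538 in limma) and with median scaling (0.0513).

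The other 4 guanylate-binding proteins did not pass. Gbp7 read 6.92, 6.88 and 6.85 against 7.26, 7.17 and 6.97, a difference of 0.25 that did not pass (adjusted p = 0.0643 in limma, and 0.018 with the block). Gbp6, which has a close copy in Gbp10, read 5.74, 5.74 and 5.78 against 5.80, 5.82 and 5.80, a difference of 0.054 (adjusted p = 0.0802 in limma). Both had groups that did not overlap. Gbp2 differed by 0.083 (adjusted p = 0.0979 in limma). Gbp5 differed by 0.0054, and on chromosome 3 it adjoins Gbp7, which adjoins Gbp3.

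**Figure D2:**
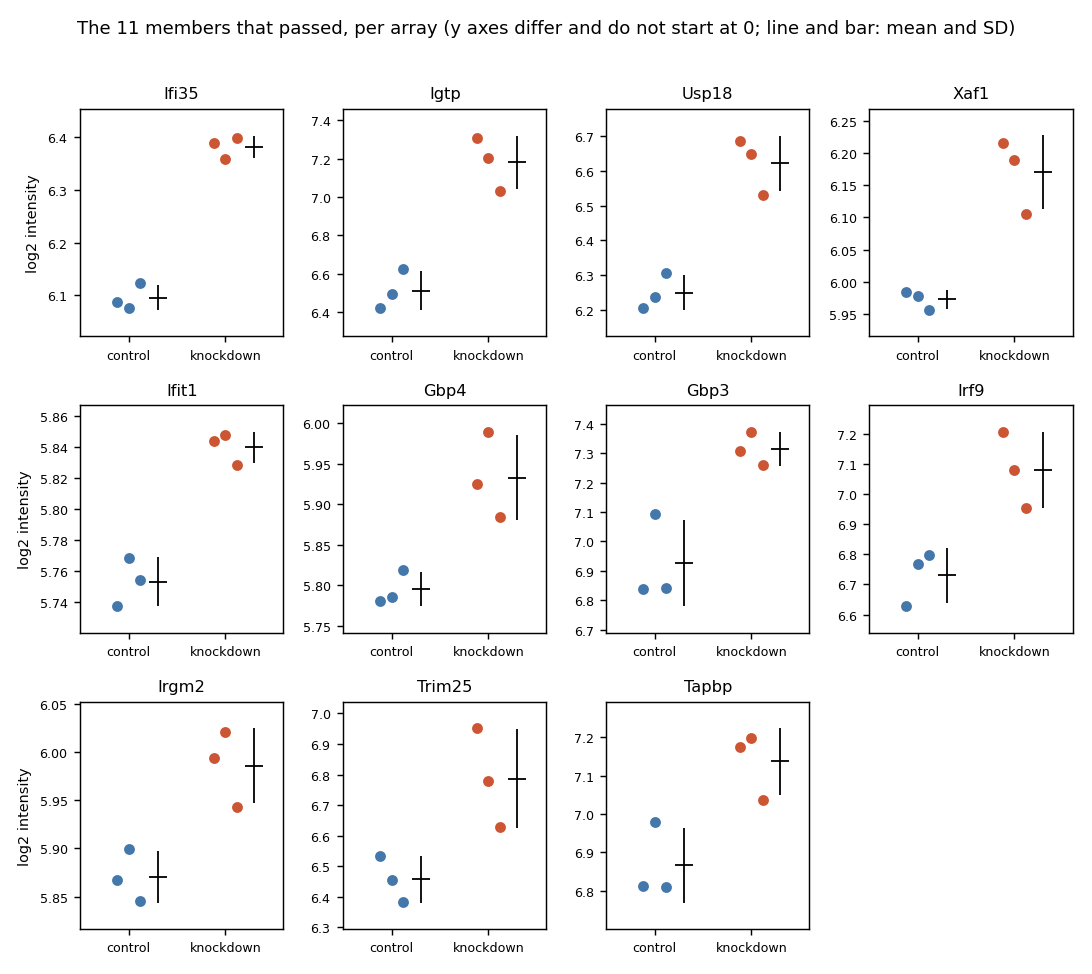
Log2 intensity on each of the 6 arrays for the 11 members that rose, with a line at each group mean. The groups do not overlap in any of the 11, and the scale differs between panels.

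Promoter sequences were searched for the elements through which interferon signalling is known to act, and to set relatives that rose beside relatives that did not pass. Windows of 300 bases, from 250 before to 50 after each transcription start, came from RefSeq (GRCm38.p6) and held 45 of the 56 members. An interferon-stimulated response element was searched as GAAA and GAAA with any 2 bases between them and a gamma-activated site as TTCNNNGAA, on both strands. The first was in 20 of the 45 members (44.4%) against 3.99% of 27025 genes, and the second in 17 of the 45 (37.8%) against 9.55% of genes. All 8 GTPase promoters in the table (Igtp, Irgm1, Irgm2, Tgtp1, Gbp2, Gbp3, Gbp5 and Gbp7) held the response element, as did 6 of 13 antiviral effectors, 2 of 9 transcription factors and 0 of 4 receptor chains. Of the 9 members that rose and had a promoter in the table, 4 held the response element (Igtp, Irgm2, Gbp3 and Ifit1) and 3 the gamma-activated site (Igtp, Irgm2 and Ifi35). Of the 36 that did not pass, 16 held the first and 14 the second. The match describes the letters only.

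The stretches below run 5′ to 3′ on the strand of each gene, end before the transcription start and show the response element, or its reverse complement where it lies on the other strand, in capitals, with overlapping matches joined. Igtp, Irgm2, Gbp3 and Ifit1 rose, while Tgtp1, Gbp5 and Isg15 did not pass. Distances count from the first base of the match that lies nearest to the start within each stretch. Igtp is at chr11:58199496-58199555 (plus strand, element 34 bases before the start), Irgm2 at chr11:58214888-58214947 (plus strand, 64 bases) and Tgtp1 at chr11:48992289-48992348 (minus strand, 77 bases). Gbp3 is at chr3:142559980-142560039 (plus strand, 39 bases for the second of its joined matches) and Gbp5 at chr3:142496744-142496803 (plus strand, 165 bases). Ifit1 is at chr19:34640779-34640838 (plus strand, 85 bases for the second of its separate matches) and Isg15 at chr4:156200850-156200909 (minus strand, 66 bases for the last of its joined matches).
Igtp: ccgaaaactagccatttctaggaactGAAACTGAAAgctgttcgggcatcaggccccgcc
Irgm2: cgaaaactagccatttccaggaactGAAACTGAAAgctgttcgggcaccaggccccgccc
Tgtp1: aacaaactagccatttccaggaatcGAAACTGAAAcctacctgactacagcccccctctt
Gbp3: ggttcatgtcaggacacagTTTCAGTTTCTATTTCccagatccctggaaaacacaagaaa
Gbp5: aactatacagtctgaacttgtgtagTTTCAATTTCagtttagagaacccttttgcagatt
Ifit1: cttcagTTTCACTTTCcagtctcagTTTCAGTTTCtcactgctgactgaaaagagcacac
Isg15: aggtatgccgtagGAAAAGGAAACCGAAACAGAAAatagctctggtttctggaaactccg
Aligned on the element, Igtp and Irgm2 were identical at 86 of 90 bases, from 60 before to 20 after it, while Igtp and Tgtp1 shared 47 and Irgm2 and Tgtp1 shared 49. Igtp and Irgm2, with differences of 0.67 and 0.12, thus have nearly the same sequence around the element. Irgm2 is dim, and the offset understates its change. In the authors' values, which carry no offset, Igtp was 2.32-fold and Irgm2 1.61-fold higher, and Irgm2 did not pass there. Tgtp1 carries the same 10 bases and differed by -0.025, at raw signals of 63.8 to 67.7, close to the blank spots. Gbp5 and Isg15 carry the element and did not pass.

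The antiviral effectors, 18 of 19 listed tested, held 3 members that rose (4.48% of all genes did). Of the 18 differences, 14 were above 0 (50.6% of all genes), with a median of 0.059. Ifi35, an interferon-induced leucine zipper protein, read 6.09, 6.08 and 6.12 in the control group against 6.39, 6.36 and 6.40 after knockdown. Replicates lay close together, and the groups stood well apart. The means of 6.10 ± 0.024 (SD, n = 3) and 6.38 ± 0.021 (SD, n = 3) differed by 0.29 (SE 0.0292, adjusted p = 0.00124 in limma). Xaf1, a pro-apoptotic antagonist of XIAP, read 5.98, 5.98 and 5.96 against 6.22, 6.19 and 6.11. Its groups did not overlap and differed by 0.20 (SE 0.0310, adjusted p = 0.00588 in limma). The raw Xaf1 signals were dim, at 69.8, 70.1 and 70.5 against 85.1, 79.2 and 79.9.

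Ifit1, which binds viral RNA that lacks the host cap, read 5.74, 5.77 and 5.75 against 5.84, 5.85 and 5.83, a difference of 0.087 (SE 0.0152, adjusted p = 0.00949 in limma). The raw signals were 60.3, 61.3 and 62.8 against 67.0, 65.4 and 66.9, next to the blank spots, and 2 of the 3 control values do not exceed the detection limit. The call ended with median scaling (adjusted p = 0.141 in limma). Its relatives Ifit3 and Ifit2 differed by 0.012 and -0.084. The Ifit3 probe was dim, at raw signals of 62.0 to 66.3, and may also read the copy Ifit3b.

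Rtp4, a chaperone of receptor transport induced by interferon, read 7.84, 7.73 and 7.75 against 8.13, 8.10 and 7.90, a difference of 0.27 (adjusted p = 0.0552 in limma). Bst2 (tetherin), which holds budding virions at the cell surface, read 6.56, 6.39 and 6.44 against 6.94, 6.70 and 6.59, a difference of 0.28 (adjusted p = 0.0723 in limma). In both genes the groups did not overlap, and both passed with the replicate number as a block (adjusted p = 0.0212 and 0.00661). Mx1, a dynamin-like antiviral GTPase, read 5.97, 5.94 and 6.01 against 5.93, 5.93 and 5.89, a difference of -0.058 (adjusted p = 0.172 in limma), and its other probe, also close to the blank spots, differed by 0.0028.

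Several widely used interferon markers did not pass. Isg15, the ubiquitin-like modifier, read 6.98, 6.94 and 7.06 against 7.08, 7.14 and 7.02, with overlapping groups and a difference of 0.086 (adjusted p = 0.39 in limma). Rsad2 (viperin), which makes a chain-terminating nucleotide, read 7.55, 7.46 and 7.30 against 7.57, 7.65 and 7.58, a difference of 0.16 (adjusted p = 0.208 in limma). Its lowest knockdown value lay barely above its highest control value. The oligoadenylate synthetase family ran from -0.0068 for Oas2 through 0.021 for Oasl1 and 0.050 for Oas1a, which has several close copies, to 0.067 for Oasl2. Oas2 and Oasl1 were dim, at raw signals of 63.5 to 69.6, where the offset holds differences close to 0. Samd9l differed by 0.10, Parp14 by 0.032, Isg20 by 0.0016 and Mx2 by -0.00098, and none passed. Isg20 and Mx2 were dim too, at raw signals of 61.7 to 64.8 and 68.4 to 73.5.

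**Figure D3:**
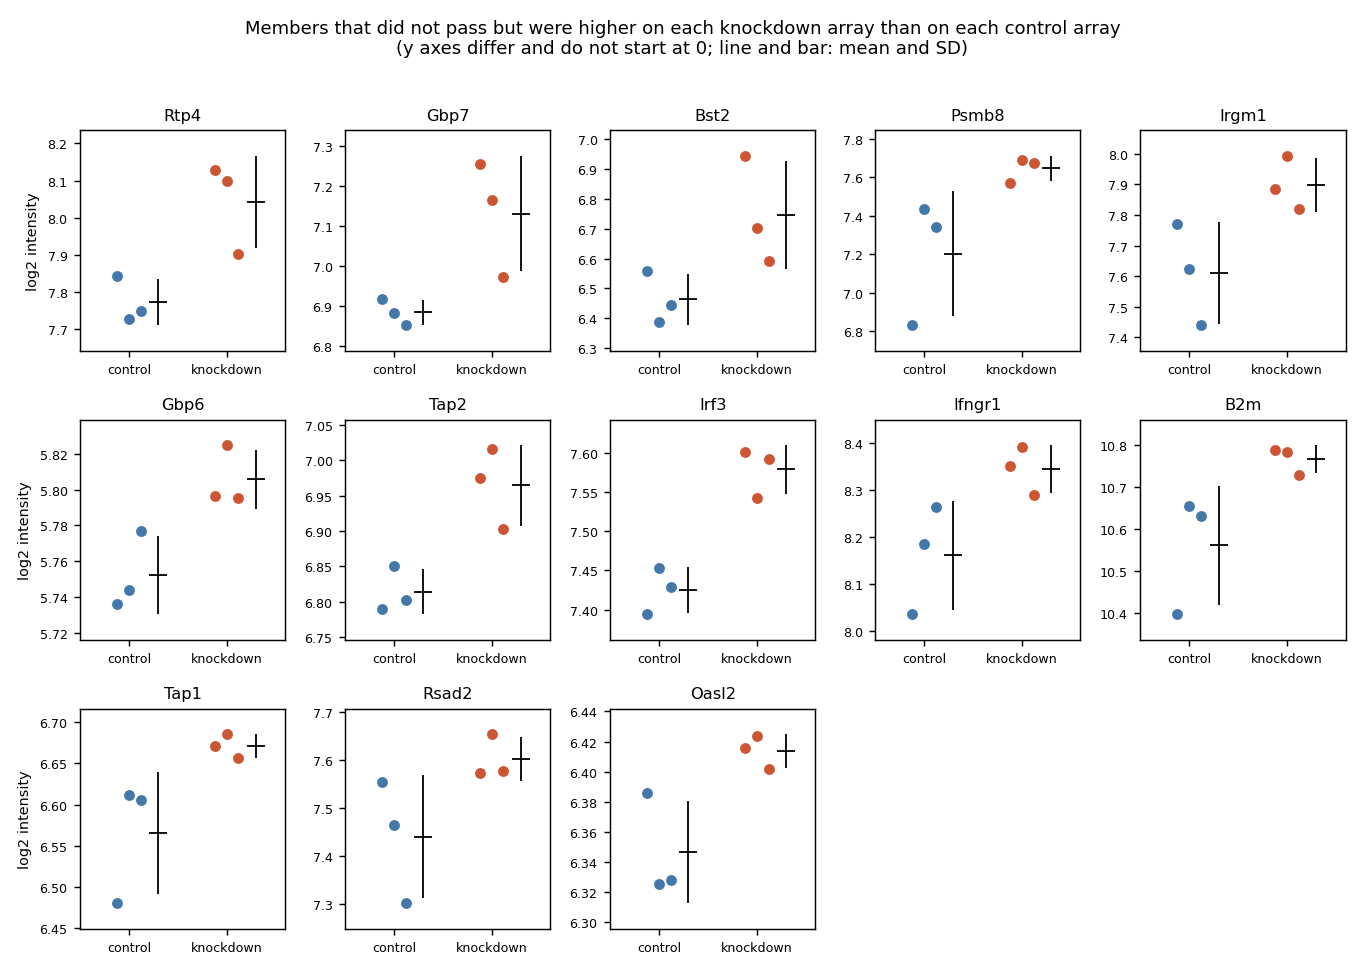
Log2 intensity on each of the 6 arrays for the 13 members that did not pass but were higher on every knockdown array than on any control array, with a line at each group mean. The groups are separate but close, and the scale differs between panels.

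In antigen presentation 1 of 7 members rose (4.48% of all genes did) and 6 differences were above 0 (50.6% of all genes). The median of 0.21 was the highest of the role groups. Tapbp (tapasin), which bridges the peptide transporter and class I molecules, read 6.81, 6.98 and 6.81 in the control group against 7.18, 7.20 and 7.04 after knockdown. The groups did not overlap, with means of 6.87 ± 0.098 (SD, n = 3) and 7.14 ± 0.088 (SD, n = 3) and a difference of 0.27 (SE 0.0672, adjusted p = 0.0374 in limma). The other Tapbp probe differed by -0.026 (adjusted p = 0.414 in limma over all probes), at raw signals of 63.2 to 67.0, close to the blank spots, against 116 to 160 for the first. The call also ended without control replicate 1 or 3 or knockdown replicate 1 or 2 (adjusted p = 0.0829 to 0.127 in limma).

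Psmb8, a catalytic subunit of the immunoproteasome, read 6.83, 7.43 and 7.34 against 7.57, 7.69 and 7.68. Control replicate 1 lay far below the other arrays, and the difference of 0.44 (SE 0.136, adjusted p = 0.0753 in limma) passed with the block (adjusted p = 0.00836). Without control replicate 1 the difference was 0.26 and passed (adjusted p = 0.0493 in limma). Tap2, a chain of the peptide transporter, read 6.79, 6.85 and 6.80 against 6.97, 7.02 and 6.90, without overlap (difference 0.15, adjusted p = 0.0948 in limma). B2m, the light chain of class I molecules, read 10.40, 10.65 and 10.63 against 10.79, 10.78 and 10.73, a difference of 0.21 (adjusted p = 0.172 in limma), and without control replicate 1, here too the lowest array, it was 0.12 (adjusted p = 0.342 in limma). Tap1 differed by 0.11 and Psmb9 by -0.036, although Psmb9, Tap1, Psmb8 and Tap2 are neighbours on chromosome 17. Psmb10 differed by 0.26 with overlapping groups (adjusted p = 0.346 in limma).

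Of 3 negative regulators, Usp18 rose (4.48% of all genes did). Usp18, which removes Isg15 from proteins and blocks signalling at Ifnar2, read 6.21, 6.24 and 6.31 in the control group against 6.68, 6.65 and 6.53 after knockdown. The groups were well separated, with means of 6.25 ± 0.051 (SD, n = 3) and 6.62 ± 0.080 (SD, n = 3), a difference of 0.37 (SE 0.0488, adjusted p = 0.00313 in limma). Socs3, an inhibitor of receptor-bound kinases, read 8.92, 8.86 and 8.76 against 8.94, 8.88 and 9.01, a difference of 0.095. Socs1, its relative, read 6.11, 6.12 and 6.23 against 6.22, 6.16 and 6.18, a difference of 0.035. Both sets of values overlapped.

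The higher level was shared by the 3 knockdown arrays and was smallest on knockdown replicate 3. Relative to the control mean of each member, the median over the 56 members was 0.095, 0.078 and 0.058 log2 units on knockdown replicates 1 to 3, with 44, 44 and 41 members above 0, against -0.013, -0.0052 and 0.0029 on the control arrays. Knockdown replicate 3 was the lowest of the knockdown arrays in 36 of 56 members and in 10 of the 11 that rose. Over all genes it was the lowest in 32.4%, and among genes called higher in 43.4%. Of the 11, Ifi35, Ifit1, Igtp, Usp18 and Xaf1 passed when any single array was left out. In all, 6 members rose without knockdown replicate 1 and 6 without knockdown replicate 2, against 8 to 14 without another array. Over all genes the shares were 2.03% and 2.31%, against 2.41% to 3.91%. Members that passed as higher when an array was left out were Ifih1, Irgm1 and Psmb8 (control replicate 1), Samd9l (control replicate 3) and Bst2, Gbp7 and Rtp4 (knockdown replicate 3).

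**Figure D4:**
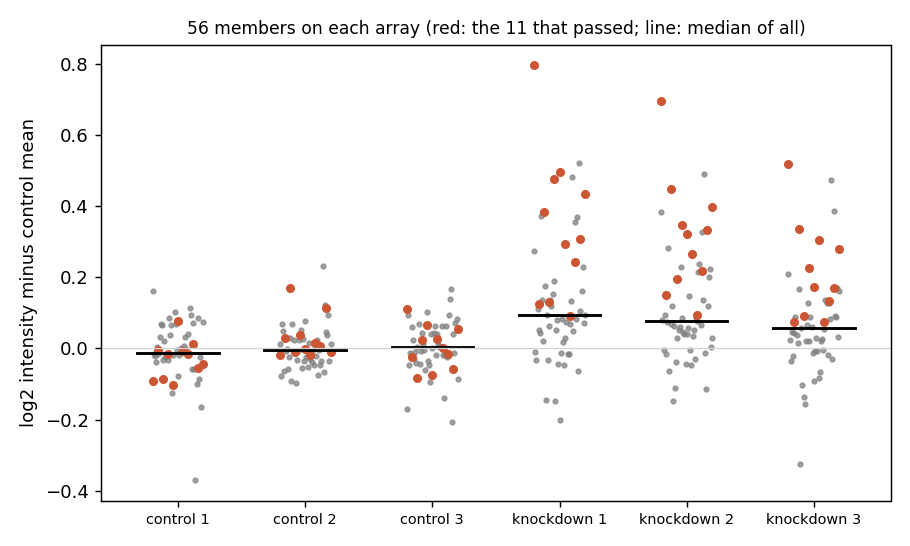
Difference of each of the 56 tested members from its control mean, in log2 units, on each of the 6 arrays, with the median as a line. The medians lie between -0.013 and 0.0029 on the control arrays and between 0.058 and 0.095 on the knockdown arrays.

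The main fit does not use the replicate numbers. With the number as a block, arrays of the same number are treated as a pair. In that fit 16 members rose (7.38% of all genes did) and 0 fell (7.43% of all genes). The 5 gained were Irgm1, Gbp7, Bst2, Rtp4 and Psmb8. The file headers give a slope between scanner gains, which separated control replicates 1 and 2 and knockdown replicate 2 (0.464 to 0.467) from control replicate 3 and knockdown replicates 1 and 3 (0.478 to 0.479). Within the first set the 11 differed by 0.095 to 0.75 and within the second by 0.082 to 0.55. All 11 were above 0 in both. Each set has an arm of 1 array, which has no spread of its own, so no test within a set is given.

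The authors' processed values, which carry no offset, give larger changes of the dim members. Per array, Igtp stood at 26, 29 and 35 in the control group against 83, 72 and 58 after knockdown, 2.32-fold higher (log2 of value + 1). Gbp4 stood at 2, 2 and 3 against 7, 9 and 5, a 2.37-fold difference on values close to 0, where the added 1 still understates a change. Ifi35 stood at 12, 12 and 13 against 25, 23 and 24, or 1.88-fold. Usp18 stood at 17, 18 and 20 against 40, 36 and 30, or 1.87-fold. On these values, 55 members were tested, 42 were above 0 with a median of 0.18, and 7 of the 11 passed. Irgm2, Irf9, Trim25 and Tapbp did not (adjusted p = 0.0647, 0.0577, 0.0797 and 0.107 in limma). All genes split into 357 higher and 735 lower there, against 781 and 896 with the offset.

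**Figure D5:**
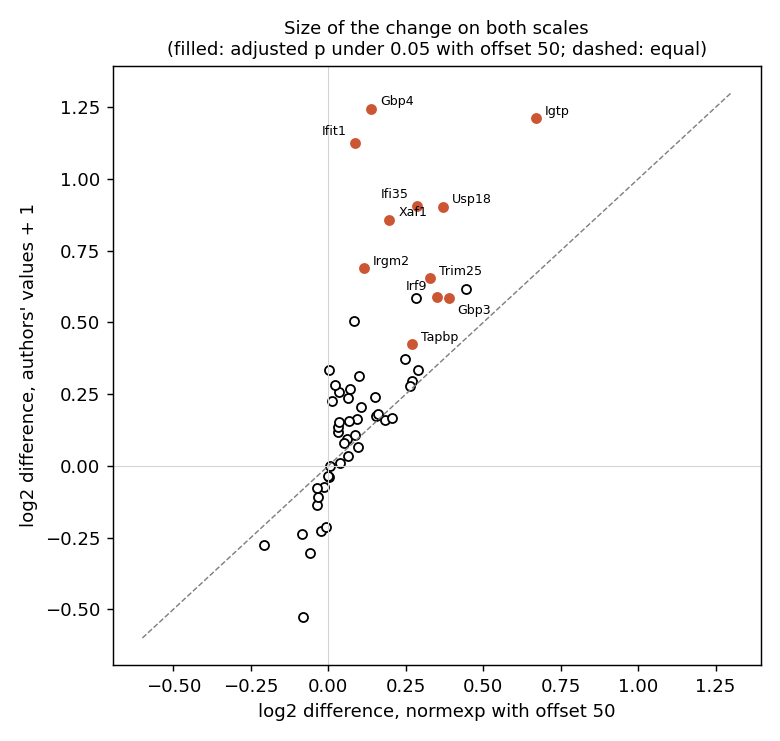
Log2 difference of 55 members on the offset scale (x axis) and in the authors' processed values plus 1 (y axis), with the line of equal values. The 11 members that rose are filled, and all 11 are larger in the authors' values, where their folds run from 1.34 to 2.37.

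Other genes of the pathway, 75 listed and 61 tested, were counted in the same way. Of the 61, 9 rose (14.8%, against 4.48% of all genes) and 1 fell (5.14% of all genes did). The median was 0.042, and 43 were above 0 (70.5%, against 50.6% of all genes). Without control replicate 2, 5 rose, against 2.41% of all genes, and 2 fell, against 532 of all 17422 genes. Tmem173 (STING), the adaptor of cytosolic DNA sensing, read 6.75, 6.78 and 6.85 in the control group against 7.52, 7.35 and 7.27 after knockdown, without overlap, a difference of 0.59 (SE 0.0700, adjusted p = 0.00203 in limma). Tlr3, a receptor of double-stranded RNA in endosomes, differed by 0.20 (adjusted p = 0.0125 in limma). Myd88, an adaptor of most other Toll-like receptors, differed by 0.30 (adjusted p = 0.0736 in limma) and Mavs, the adaptor of RIG-I, by 0.18 (adjusted p = 0.247 in limma, and 0.0480 at a difference of 0.27 without control replicate 1).

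The other 7 that rose were effectors, out of 21 tested (4.48% of all genes rose). The membrane proteins that stop viral entry rose together, with Ifitm2 at 0.53 (adjusted p = 0.00765), Ifitm3 at 0.41 (adjusted p = 0.00735) and Ifitm1 at 0.23 (adjusted p = 0.0256), all in limma. Because these 3 genes are similar in sequence, their probes may read one another. Median scaling ended the call of Ifitm3 (adjusted p = 0.0625 in limma), and Ifitm1 did not pass without control replicate 1 or 2 (0.0623 and 0.0827). Lgals3bp, a secreted glycoprotein, rose by 0.56 (adjusted p = 0.00405 in limma), with 6.08, 6.14 and 6.27 against 6.85, 6.77 and 6.55. Cxcl10, a chemokine, rose by 0.33 (adjusted p = 0.0366 in limma), and its knockdown values of 6.72, 6.50 and 6.34 were uneven. Trim21, an antibody receptor in the cytosol, rose by 0.24 (adjusted p = 0.0215 in limma). Leaving out control replicate 2 or 3 or knockdown replicate 1 or 2 ended the calls of Cxcl10 (adjusted p = 0.0605 to 0.111 in limma) and of Trim21 (0.0535 to 0.0817). Ifi30, a lysosomal thiol reductase, rose by 0.18 (adjusted p = 0.0429 in limma), and its call was lost when any of the 6 arrays was left out. Nmi, a binding partner of Ifi35, differed by 0.31 (adjusted p = 0.0610 in limma), and Plscr1, a scramblase, by -0.16 (adjusted p = 0.109 in limma).

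The gene that fell was Jak2, a kinase of the interferon gamma receptor and of many other cytokine receptors. It read 8.06, 8.02 and 8.05 in the control group against 7.48, 7.57 and 7.52 after knockdown, clearly apart, a difference of -0.53 (SE 0.0553, adjusted p = 0.00146 in limma). The other receptor kinases did not pass, Tyk2 at 0.13 (adjusted p = 0.215 in limma) and Jak1 at -0.21 (adjusted p = 0.465 in limma). None of 7 tested interferon ligand genes passed (limma). Of these, Ifna1 differed by -0.22 (adjusted p = 0.166, and 0.0329 at -0.32 without control replicate 2) and Ifnab by 0.035 (adjusted p = 0.172). Of 11 other antigen presentation genes 0 passed, with Canx at 0.30 (adjusted p = 0.0502 in limma) and Erap1 at 0.18 (adjusted p = 0.0756 in limma). The median of the 11 was -0.029, with 5 above 0 and 6 below. Of 7 other negative regulators 0 passed, with Pias1 at -0.16 (adjusted p = 0.104 in limma) and Ptpn11 at -0.088 (adjusted p = 0.127 in limma). The median of the 7 was 0.032, with 5 above 0 and 2 below. With the replicate number as a block 14 of the 61 rose and 3 fell, against 7.38% and 7.43% of all genes. Myd88, Nmi, Canx and Erap1 were among those that rose and Plscr1 and Ptpn11 among those that fell.

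Markers of immune and vessel cells, which also express these genes, were measured beside them. Of 13 annotated microglia and macrophage markers, 9 were above the limit on all 6 arrays, and Tmem119 was not above it on any. Of the 11 tested 0 passed. Of these 11 differences, 9 were above 0 (50.6% of all genes) and 2 below, with a median of 0.024. For the 13, the summed signal above the blank mean was 205 to 235 on the control arrays and 206 to 268 on the knockdown arrays, which overlap. Of 6 annotated lymphocyte markers, 4 were above the limit on all 6 arrays. Of the 5 tested 0 passed (summed signal 54.1 to 64.7 against 49.5 to 69.6), with 1 difference above 0 and 4 below. Of 7 annotated endothelial markers, 3 were above the limit on all 6 arrays, and Cldn5 and Tek were not above it on any. Of the 4 tested 0 passed (73.1 to 98.1 against 83.5 to 109.4), and all 4 differences were above 0, with a median of 0.022. Of 8 astrocyte markers 0 passed (11555.5 to 12083.4 against 9843.2 to 12376.6). Of 8 neuronal markers Map2 and Gap43 were lower (5.14% of all genes were). The neuronal sums did not overlap (1674.7 to 2644.8 against 1059.3 to 1589.4). Of 8 fibroblast and mural markers Cspg4, which precursors share, was lower. The sums that include it did not overlap (132.8 to 145.7 against 97.5 to 127.5), nor did those of the 8 precursor markers (12501.7 to 14704.5 against 9620.7 to 11663.1). In the blocked fit Gjb6 and Syt1 were also higher (adjusted p = 0.0179 and 0.0169 in limma) and Slc1a2, Tubb3 and the precursor marker Olig1 lower (0.0162, 0.0329 and 0.0370), while 0 microglia, lymphocyte and endothelial markers passed. The part of cell composition in the higher members was not tested.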

How the data were processed

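Total RNA from 3 control and 3 knockdown samples was amplified, coupled to dye and hybridised to 1-colour TORAY arrays, per the labels' protocols. The intensity read from the deposited scanner files is a spot median, and 0 per-sample columns were left without a mapped sample. The authors' processed intensity values were each the spot signal less about the blank mean, scaled to a median of 25 and rounded, which was recovered from the values and is stated in no source. They are linear, with no centring of genes.

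Intensities of 27456 spots were corrected with normexp (offset 50, no local background), quantile normalized and converted to log2 means per probe with R 4.3.3, limma 3.58.1 and statmod 1.5.0, and figures were drawn with matplotlib 3.10.9. Of 23473 probes, 20690 had 1 gene symbol in the platform annotation and 2783 had none. Probes above the mean of the blank spots plus 2 SD on at least 3 of 6 arrays were tested, and a gene was represented by its brightest probe. Of 62 member probes, 62 passed this filter and 57 were above the limit on all 6 arrays. At 3 SD these counts were 59 and 57. The fit was lmFit and eBayes with a trend and no block, with Benjamini-Hochberg adjustment over 17422 genes and two-sided p-values. The procedure was tested on simulated data.

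Members and gene lists were chosen with earlier results of these data known. Values by sample are given for members that passed, for up to 3 more of each role with the smallest p and for the brightest of each role. Of the pathway genes, those that passed and up to 2 more per list are named. Isg15 and Rsad2 were shown after their values were seen, and the printed promoters were also chosen with the values known.

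Both groups are numbered 1 to 3 in the labels, which do not explain the numbers. For arrays of the same number, the correlation of deviations from their group mean was 0.36, 0.38 and 0.23. A fit with the number as a block was therefore run beside the main fit, which ignores the numbers. That the numbers pair the samples is an inference from the data. Unless the block is named, SEs, p-values and calls come from fits without it.

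The 24 alternatives cover the background correction, the normalization, the authors' values, the filter, the variance model, array weights, the replicate block, the gain slope, the threshold, each probe by itself and the arrays left out.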

Additional observations from a re-analysis of the deposited data

How the results depend on the processing

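The 24 alternatives changed the number of members that rose as follows, from 11. No background correction, an offset of 16, cyclic loess, no filter and each probe by itself changed no call among the members. The authors' values gave 7 (2.11% of all genes), eBayes without a trend 7 (4.58%) and an adjusted p under 0.1 gave 19 (7.31%). Array weights gave 14 (5.60%), median scaling 9 (3.02%) and the gain slope as a block 11 (3.09%), with Trim25 lost (adjusted p = 0.0537 in limma) and Irgm1 gained. With array weights Tapbp was lost (0.0520) and Irgm1, Rtp4, Bst2 and Gbp6 were gained. No counts are given for the sets of arrays with a shared gain slope, because each has an arm of 1 array. Leaving out arrays gave 3 to 14, where 0.597% to 3.91% of all genes rose. The lowest, 3 against 0.597%, came without both arrays numbered 2, where Usp18 and Xaf1 were also lost (adjusted p = 0.0649 and 0.0867 in limma). The number that fell went from 0 to 1 with array weights (1057 of all 17422 genes) and to 1 at an adjusted p under 0.1 (1413). It was 0 to 1 when arrays were left out (140 to 772). Pathway genes that rose numbered 14 with the replicate block (7.38% of all genes) and 1 to 10 when arrays were left out (0.597% to 3.91%), from 9. Those that fell numbered 2 without a trend (1012 of all 17422 genes), 3 with the block (1295) and 1 to 2 when arrays were left out (140 to 772), from 1. The block, as the paired analysis, changed no other call among members than the 5 gained. The gain sets hold 3 arrays each, with an arm of 1. Elsewhere the cause was not tested.

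Median scaling lost Gbp4 (adjusted p = 0.0513), Irgm2 (0.0722) and Ifit1 (0.141) in limma, and eBayes without a trend lost Gbp4, Irgm2, Trim25, Ifit1 and Tapbp. None of the 11 changed sign under any alternative, while 21 of the 45 other members did under at least 1. Signals near the blank spots limit Ifit1, Gbp4, Gbp6, Irgm2 and, on the control arrays, Xaf1. Tgtp1, Gbp2, Irf2, Irf8, Ifit3, Isg20, Mx1, Mx2, Oas2 and Oasl1 were also dim, and differences near 0 say little there. In the authors' values Gbp6 was not tested, and the filter on all 6 arrays left out 3 members.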
